A study of Mus musculus with 4 samples.

Results

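The experiment set mouse embryonic fibroblasts that carried 4 reprogramming factors against untransduced fibroblasts, with both cultures kept at 21% O2. The comparison took 2 of the study's 4 arrays, chosen by their titles. The four-factor culture had been transduced with Oct3/4 (gene Pou5f1), Sox2, Klf4 and c-Myc (gene Myc) and was kept at 21% O2 for 72 hours. Its source label gives day 4. The untransduced culture carried no added gene and was kept at 21% O2 for 10 days. The other 2 arrays were made from the same kinds of culture at 5% O2, and are used here to show whether a difference appeared again and in a model over all 4 arrays. Strain, embryo age, vector and the number of embryos behind a culture are not given in the sources used here. Each condition had 1 array, so a difference at 21% O2 has no replicate check and no p-value of its own. Transduction, time in culture, slide and scan separate the groups in the same way: both four-factor arrays lie on slide 2 and both untransduced arrays on slide 1. These cannot be told apart, and in whole cultures fewer cells of a type and less RNA per cell cannot be told apart either.

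Fibroblasts are connective tissue cells that secrete collagen and other matrix proteins, and embryonic fibroblasts are the usual starting material for making induced pluripotent stem cells. Oct3/4, Sox2 and Klf4 bind the regulatory sequences of genes used in pluripotent cells, while c-Myc is known for raising the transcription of genes for ribosome production, nucleotide synthesis and cell division. Early reprogramming is known for faster division, loss of mesenchymal gene expression and gain of epithelial gene expression, with the genes of established pluripotency coming late. Genes are described below in that order of roles, from the factors to the mesenchymal, epithelial, growth and immune genes.

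RNA was hybridised to 1-colour (Cy3) Agilent arrays. A level is the log2 of a probe's processed signal minus the 75th percentile of its array, so 0 is the signal that 75% of probes do not exceed, and a difference of 1 is 2-fold. Levels of different genes are not comparable, because probes differ in brightness. Of the 41174 probes, 68.1% were well above background on the four-factor array and 57.1% on the untransduced array (68.4% and 58.3% at 5% O2). The lowest signal well above background lay at a level of -6.85 on the four-factor array and -4.93 on the untransduced array. The four-factor array thus read weaker signals. A gene seen on 1 array is given as a lower bound, written "at least", with the dim side at the higher of its own signal and that lowest signal. No spot was saturated. Precision is limited by having 1 array a culture, since the median standard deviation between replicate spots (0.051 and 0.042 log2 units) covers a spot and not a culture.

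The 5% O2 arrays allow a test of the culture effect over both oxygen levels. An additive model, with 1 term for the culture and 1 for oxygen, was fitted in limma to 18272 genes on the 4 arrays. It has 1 residual degree of freedom, and its error starts from the disagreement between the contrasts at 21% and 5% O2. The limma fit then draws each gene's error toward a value shared over all genes, which weighs as 2.83 degrees of freedom against that 1. The model's estimates are given with their standard error (SE) and Benjamini-Hochberg adjusted p as "culture term". For genes whose contrasts agree, the SE comes mostly from the shared value. A culture term past an adjusted p of 0.05 shows a difference between the 2 four-factor and the 2 untransduced arrays. It does not show that a repeat culture at 21% O2 would do the same. A gene dim on both arrays of a culture entered the model only through the other culture, so that filter largely set its direction.

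A signal on both arrays was measured for 15219 genes. Of these 1804, or 11.9%, were higher in four-factor cells by 2-fold or more, and 2529, or 16.6%, were lower by 2-fold or more. Together these 4333 genes were 28.5% of those measured. The 11.9% and 16.6% are set beside the shares of the gene lists below as "all genes". At least 4-fold differences numbered 378 higher and 925 lower, and at least 8-fold differences 101 higher and 343 lower. The larger differences were more often toward lower signal in four-factor cells. Differences in any amount were nearly balanced, with 7459 genes higher (49%) and 7760 lower (51%), and the median over all genes was -0.02. A further 3164 genes were well above background on the four-factor array only, and 362 of them (11.4%) had a bound of at least 2-fold. For 386 genes seen on the untransduced array only, 386 bounds (100%) were at least 2-fold, which the gap between the lowest signals of both arrays fixes. The balance depends on the detection floor. The lower counts, and the 16.6%, include genes that the four-factor array reads below -4.93, where the untransduced array has no signal well above background. With a common detection floor of -4.93, chosen after seeing the data, 1804 genes were 2-fold or more higher and 2019 lower. Of the genes called 47.2% were then higher, and the 4-fold and 8-fold counts were not repeated. The balance also depends on the scaling. Set on spike-in controls in place of the 75th percentile, the median over all genes was 0.38, with 3474 genes 2-fold or more higher and 1665 lower, so that 67.6% of the genes called were higher against 41.6% in the main scaling. Spike-in scaling shifts every difference up by the same amount, and the differences below are relative to the 75th percentile. The culture term passed for 4982 genes higher (27.3%) and 4165 lower (22.8%) in four-factor cells by limma, and of the 2-fold genes 1756 and 2394 passed.

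**Figure D1:**
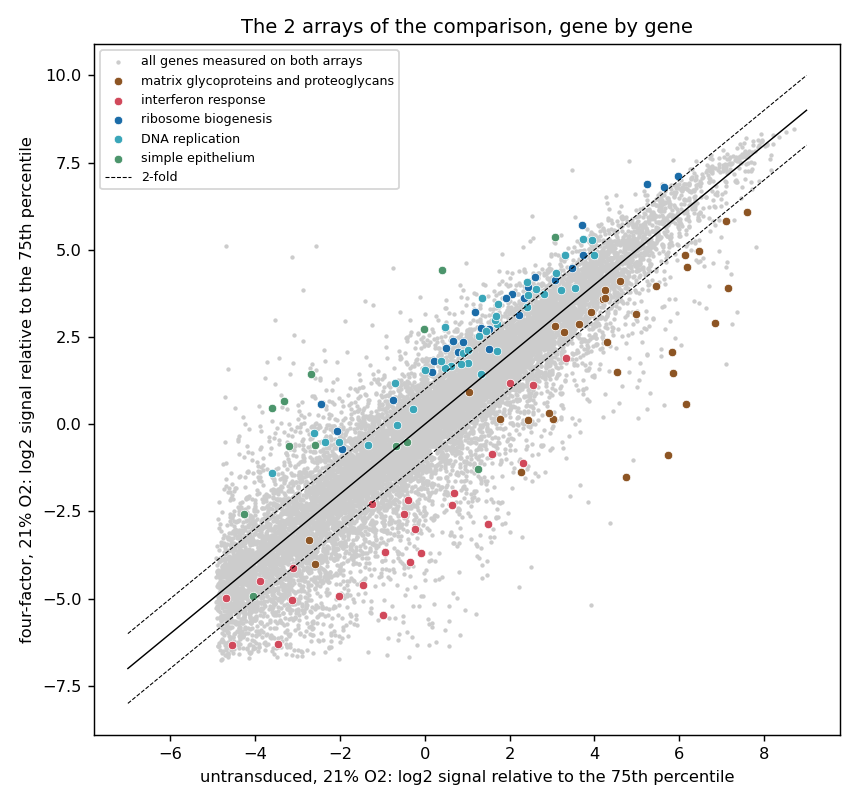
Level of each gene on the four-factor array (vertical axis) against its level on the untransduced array (horizontal axis), both in log2 signal relative to the 75th percentile at 21% O2. Grey points are the 15219 genes measured on both arrays, coloured points are members of 5 gene lists, and dashed lines mark 2-fold; the 28 ribosome biogenesis genes lie above the diagonal and the 32 matrix genes below it.

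The transduced genes themselves gave a mixed reading. For Pou5f1 the probe (chr17:35118388-35118448 in mm8) had a level of -0.59 on the four-factor array and -7.22, not well above background, on the untransduced array, at least 20.4-fold higher. At 5% O2 its levels were -0.20 and -7.42, and its culture term was 6.93 ± 0.22 (SE; limma adjusted p = 0.00288). Myc had 3 probes that disagreed. The probe at chr15:61819528-61819587 read 3.75 against 1.16 and the probe at chr15:61819036-61819095 read 2.01 against -1.52, higher in four-factor cells by 2.59 and 3.53. The third, at chr15:61819627-61819687, read 0.52 against 2.03, a difference of -1.51. These signs were the same at 5% O2, where the differences were 4.17, 4.98 and -0.74.

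Sox2 and Klf4 were lower in the cells labelled as transduced with them. Sox2 (chr3:34843400-34843459) read -4.49 on the untransduced array and was too dim to measure on the four-factor array, at least 5.14-fold lower. At 5% O2 it read -5.67 against -2.85. Klf4 (chr4:55549061-55549120) read 4.10 against 5.24, and 3.64 against 5.34 at 5% O2, with a culture term of -1.42 ± 0.22 (SE; limma adjusted p = 0.0136). The files give probe positions in mm8 but no probe sequences and no exon or UTR annotation, and the vectors are not described in the sources used here. Whether each probe reads the introduced transcript, the cell's own transcript or both was not tested, so the Sox2 and Klf4 probes check the labels in neither direction.

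**Figure D2:**
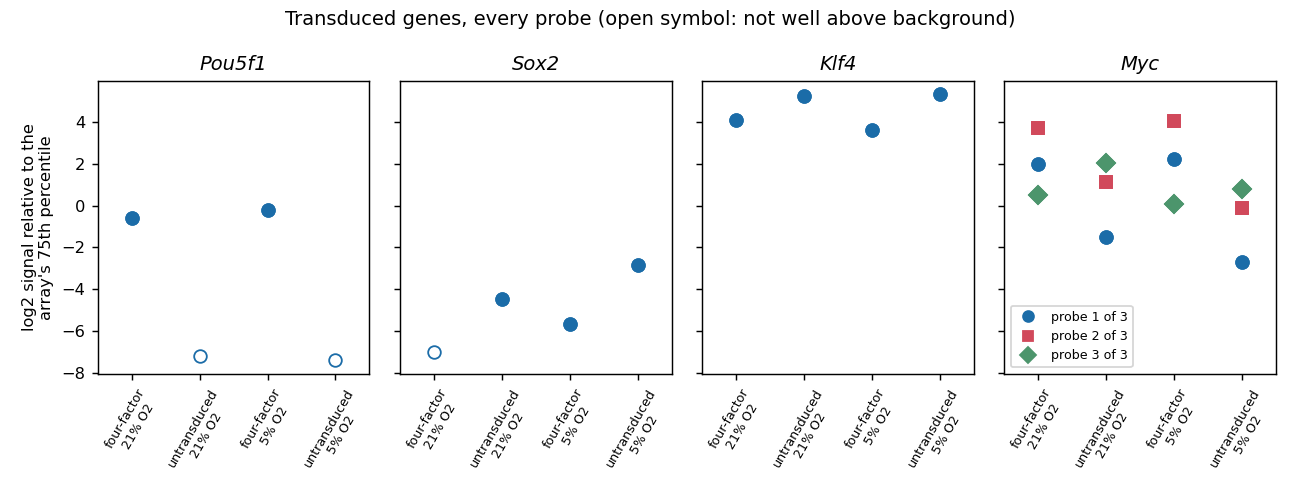
Level (log2 signal minus the 75th percentile of its array) of every probe for the 4 transduced genes on the 4 arrays, with open symbols for values not well above background. Pou5f1 stands at -0.59 and -0.20 on the four-factor arrays against -7.22 and -7.42, Sox2 and Klf4 are lower on the four-factor arrays, and 2 of the 3 Myc probes are higher there.

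Genes of the pluripotency network were dim or differed by less than 2-fold, with few exceptions. Of 28 genes on the list, 25 were on the array, and 8 were well above background on neither array: Nanog, Esrrb, Lin28a, Nr5a2, Dppa3, Dppa4, Tdgf1 and Eras. Nanog, a core factor of the pluripotent state, read -7.17 against -7.07. Of the 11 measured on both arrays none was 2-fold higher and 2 (18.2%, all genes 16.6%) were 2-fold lower, with a median of -0.03. This median was 0.37 with spike-in scaling and -0.82 with the median over probes, where 5 of 10 genes were 2-fold lower. The culture term passed for 6 higher and 2 lower of the 17 fitted (all genes 27.3% and 22.8%). Among those higher, Zfp42, Lin28b, Nr0b1 and Utf1 were dim on both untransduced arrays and entered the model through the four-factor arrays only. Tdgf1 and Nanog passed detection at 5% O2 only, at -4.12 and -5.57 on that four-factor array.

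Another 6 pluripotency genes were seen on the four-factor array only. Fbxo15, a gene used as a reporter of early reprogramming, had a level of -2.56 against -4.79 and was at least 4.72-fold higher, the only one of the 6 past 2-fold by its bound. At 5% O2 it read -1.98 against -4.17, and its culture term was 2.21 ± 0.16 (SE; limma adjusted p = 0.00437). Lin28b, Zfp42 (Rex1), Nr0b1, Utf1 and Tcl1 read between -5.54 and -4.64 on the four-factor array, close to the lowest detectable levels. The culture term was 2.50 ± 0.21 for Lin28b, 2.20 ± 0.37 for Zfp42 and 3.25 ± 0.61 for Nr0b1, each past an adjusted p of 0.05 in limma. Those estimates use dim signals as measured. Dppa5a was lower, at -1.86 against -0.08. Gdf3 went opposite ways, at -6.38 against -3.17 here and -4.83 against a dim -7.43 at 5% O2, and its culture term did not pass (limma adjusted p = 0.872).

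Markers of fibroblasts were present in both cultures. Vim, S100a4, Thy1, Col1a1 and Col1a2 were well above background on all 4 arrays, and all 22 genes of the fibroblast surface and cytoskeleton list were measured on both arrays at 21% O2. Their median difference was -0.55, and 10 (45.5%, all genes 16.6%) stood 2-fold or more lower and 4 (18.2%, all genes 11.9%) as much higher. Itga11, a collagen-binding integrin chain, read 1.95 against 5.58, a difference of -3.63, and Pdgfra, the platelet-derived growth factor receptor alpha, -1.05 against 2.23, a difference of -3.28. Pdgfrb, Fgf7 and Fap differed by -2.43, -2.43 and -2.18. Thy1, the surface protein whose loss is followed in reprogramming, read 4.77 against 6.55, with -1.78 at both oxygen levels and a culture term of -1.78 ± 0.16 (SE; limma adjusted p = 0.00579). Ly6a, Cd44, Dpp4 and Nt5e were higher by 1.80, 1.44, 1.35 and 1.26. Vim, the mesenchymal filament protein, was 7.26 against 6.76, and S100a4 was 8.32 against 7.92. Among the 10 genes of highest signal on the four-factor array were Rps18, Rpl7a and Rps23, ribosomal protein genes, and S100a4. On the untransduced array Rps18, Rpl7a and Rps23 were again among the 10, with the fibroblast genes Acta2 and Col1a2. The culture term passed for 10 lower and 4 higher of 22 (all genes 22.8% and 27.3%).

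Transcription factors of mesenchyme were more uniform. Of 24 on the list 21 were measured on both arrays, 20 of them were lower (19 with spike-in scaling) and 12 were at least 2-fold lower, with a median of -1.13. Snai2, which represses epithelial genes, read 2.75 against 4.44, and Zeb1, of the same function, 1.27 against 1.96. Their culture terms were -1.62 ± 0.16 (SE; limma adjusted p = 0.00686) and -0.81 ± 0.17 (SE; limma adjusted p = 0.0267). Osr2 and Ebf1 differed by -3.63 and -2.60. Meox1 was dim in four-factor cells, at -7.35 against -0.49, at least 82-fold lower, and Tcf21 at -8.99 against -4.45, at least 5.28-fold lower. Of 24 fitted, 21 passed as lower and 1 as higher.

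Matrix genes were lower as a group. All 32 matrix glycoproteins and proteoglycans were measured on both arrays and lower in four-factor cells, 30 of them with spike-in scaling, and 22 were at least 2-fold lower, against 16.6% of all genes. Their median was -1.58, and -2.03 at 5% O2. Mfap4, a microfibril-associated protein, read -0.89 against 5.73. Eln, the elastin of elastic fibres, read -1.52 against 4.75. Lum, a proteoglycan that spaces collagen fibrils, read 0.57 against 6.16. These were 98.2-fold, 77.1-fold and 48.3-fold lower, and their culture terms were -7.17 ± 0.33, -6.60 ± 0.23 and -5.95 ± 0.24 (SE; limma adjusted p = 0.00301, 0.00288 and 0.00288). Ogn differed by -4.39, Postn by -3.94 and Dcn by -3.26. Fn1, the fibronectin gene, had a smaller difference of -1.67, from 6.18 to 4.51. In all, 27 of 32 passed the culture term and each of these was lower.

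Collagen chains split by size of difference. All 22 were measured on both arrays, 20 were lower under each scaling and 15 were at least 2-fold lower, with a median of -1.54. Col8a2, a chain of short-chain collagen VIII, had the largest negative difference of the 15219 genes measured on both arrays. It read -5.18 against 3.91, which is 542-fold lower, and -5.09 against 4.28 at 5% O2, with a culture term of -9.22 ± 0.18 (SE; limma adjusted p = 0.00288). Its partner chain Col8a1 differed by -2.71. Col14a1 and Col12a1, chains that associate with fibrils, differed by -3.64 and -2.75, although the 2 probes of Col14a1 disagreed in direction. The chains of collagen I, the main fibril collagen, differed by little: Col1a1 read 6.45 against 6.99 and Col1a2 7.61 against 8.14. The culture term of Col1a1 was -0.49 ± 0.16 and did not pass (limma adjusted p = 0.0744), nor did that of Col1a2 (limma adjusted p = 0.0545).

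Enzymes that modify and crosslink collagen were mostly lower too. Of 19 measured on both arrays, 12 stood 2-fold or more lower and 1 at least 2-fold higher, with a median of -1.12. Adamts2, which removes the amino-terminal propeptide of procollagen, read 0.39 against 4.43. The crosslinking oxidases Lox, Loxl1 and Loxl2 differed by -2.39, -2.46 and -1.74, while their relative Loxl4 read -1.92 against -3.22 and was higher by 1.30. Among 18 measured matrix proteases and inhibitors, 14 were at least 2-fold lower and none 2-fold higher, with a median of -1.49. Adamts1 and Adamts5, which cut proteoglycans, differed by -3.67 and -3.32, and the gelatinase Mmp2 by -2.23. Mmp10 alone exceeded 2-fold in the other direction by its bound, with -2.77 on the four-factor array, at least 4.47-fold higher. Timp2 and Timp3, inhibitors of these proteases, differed by -1.20 and -1.43.

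Contractile and growth factor response genes differed less. The 18 contractile genes were all lower (16 with spike-in scaling), 8 of them at least 2-fold, with a median of -0.97 here and -0.65 at 5% O2. Mylk, the kinase of smooth muscle myosin light chain, read -0.22 against 2.50, and Myh11, a smooth muscle myosin, differed by -2.35. Acta2, smooth muscle actin, read 7.29 against 8.17, with a culture term that missed the threshold (limma adjusted p = 0.0514). In the list of TGF-beta and YAP response genes 8 of 20 were at least 2-fold lower and none 2-fold higher, with a median of -0.56 here and -0.27 at 5% O2. Tgfbr3, a co-receptor for TGF-beta, read -6.56 against -2.64, Ltbp2 3.52 against 6.35 and the ligand Tgfb3 3.60 against 5.76. Ccn2, a common YAP target, read 5.85 against 6.94 here and 5.14 against 5.43 at 5% O2. Its culture term did not pass (limma adjusted p = 0.0988).

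**Figure D3:**
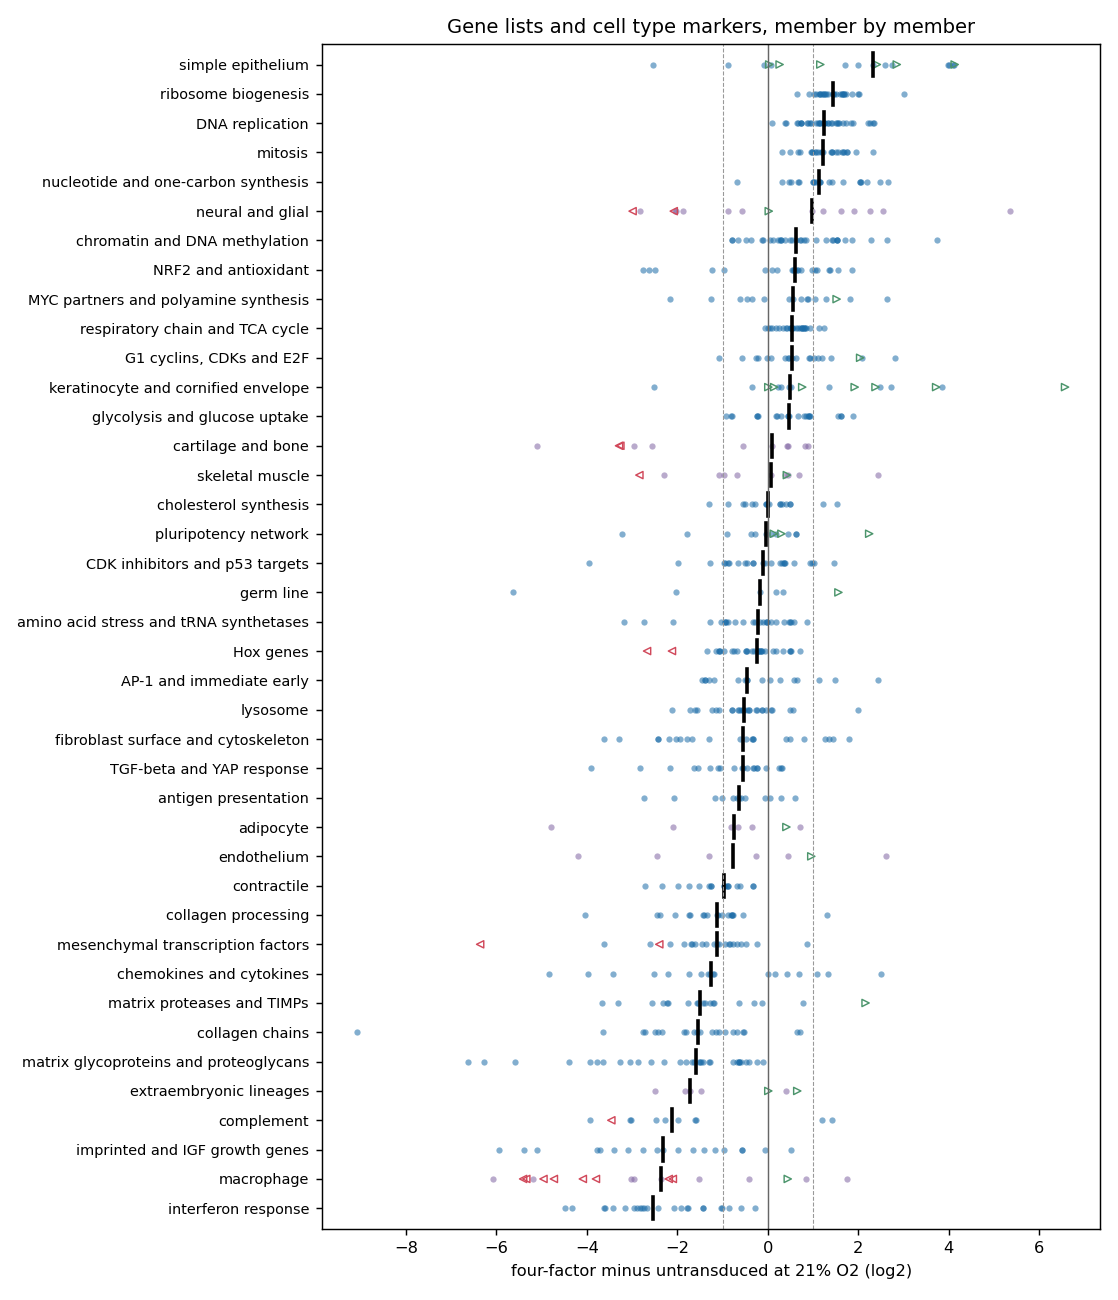
Difference between four-factor and untransduced cells at 21% O2 (log2) for each member of the gene lists (blue) and cell type marker lists (purple) measured on both arrays, with the median as a black bar and 2-fold as dashed lines. Triangles are lower bounds for genes seen on 1 array; over genes measured on both arrays, medians run from -2.55 for the interferon response to 2.32 for simple epithelium.

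Epithelial genes were higher, but not throughout. Of 30 genes typical of simple epithelium, 13 were measured on both arrays, and 9 of these were 2-fold or more higher and 1 was 2-fold lower, with a median of 2.32, against 11.9% of all genes at least 2-fold higher. A further 9 were seen in four-factor cells only, 4 of them at least 2-fold higher by their bound, and 8 were dim on both. Krt8, a keratin of simple epithelium, read 1.43 against -2.69. Dsp, a protein of desmosomes, read 0.66 against -3.33. Cd24a, a surface glycoprotein, read 4.42 against 0.41. The culture terms of Krt8, Dsp and Cd24a were 4.36 ± 0.20, 4.48 ± 0.30 and 4.40 ± 0.26 (SE; limma adjusted p = 0.00303, 0.00402 and 0.00368).

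Cdh1, the E-cadherin that holds epithelial cells together, was seen on the four-factor array at -2.08 and was dim on the untransduced array at -6.98, at least 7.21-fold higher. At 5% O2 it read -1.51 against -3.79 and was measured on both, so its difference there was 2.27. Cldn3, a tight junction claudin, read -0.80 against a dim -5.33, at least 17.6-fold higher. Epcam, an epithelial adhesion molecule, read -4.67 and had a bound of only 1.20-fold. Krt7 went the other way, at -1.28 against 1.26, and Krt18, the usual partner of Krt8, was -0.52 against -0.43. Esrp1, Grhl2, Ovol1, Ocln and Cldn4 were among those dim on both arrays. The culture term passed for 16 of the 22 genes fitted as higher and for 2 as lower. Genes dim on both untransduced arrays, Epcam among them, entered the model through the four-factor arrays only.

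Genes of stratified epithelium gave a similar mixture. Of 24 keratinocyte genes 10 were measured on both arrays, of which 4 were at least 2-fold higher and 1 lower, and 4 of the 11 seen in four-factor cells only were at least 2-fold higher by their bound. Pkp1, a desmosomal plakophilin, read 1.63 against a dim -6.26, at least 94.8-fold higher, and its culture term was 8.56 ± 0.37 (SE; limma adjusted p = 0.00288). It was dim on both untransduced arrays and entered the model through the four-factor arrays only. Krt16 read -0.04 against -3.89, Krt14 -0.23 against -2.95 and Tgm1, a crosslinking enzyme of the cornified envelope, -1.21 against a dim -5.57. Trp63, the factor that specifies keratinocytes, read -5.62 against -3.11 and was 2-fold lower in both contrasts, by -2.51 and -3.09.

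Cell division genes were higher almost as a block. All 25 mitosis genes were measured on both arrays and higher under each scaling, 18 at least 2-fold, with a median of 1.22. Cenpa, the centromeric histone, read 1.60 against -0.72 and Plk1, a mitotic kinase, 4.14 against 2.40. Mki67, the common proliferation marker, read 4.33 against 3.11 (culture term 1.60 ± 0.25, SE; limma adjusted p = 0.0147). All 38 DNA replication genes were also higher under each scaling, 26 at least 2-fold, with a median of 1.24 here and 2.02 at 5% O2. Cdc6, which loads the replicative helicase, read -0.26 against -2.61. Mcm10 read 2.79 against 0.48, Mcm5, a helicase subunit, 3.61 against 1.34, and Orc1, of the origin recognition complex, -1.41 against -3.61. The culture term passed as higher for 24 of 25 mitosis and 35 of 38 replication genes, and as lower for none.

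Binding sites of E2F factors, which drive S phase genes, are written in several replication promoters. In the 250 bases before each start (RefSeq, GRCm38.p6), both strands were searched for TTTCGCGC or TTTGGCGC, which overlap where the letters run into their own complement. They occur in 5 of 33 windows of replication genes (15.2%), those of Mcm5, Mcm6, Orc1, Pola1 and Rfc3, and in 215 of all 32851 windows (0.654%). Windows were found for 29 of the 38 replication genes, and some genes have more than 1 start. The sequences of 3 members that hold the letters are shown, with differences of 2.26 for Mcm5, 2.21 for Orc1 and 1.58 for Mcm6, a helicase subunit like Mcm5. They run 5′ to 3′ along the gene's strand and end at the base before the start, with the matching letters in capitals. A match is a description of letters and not a bound site.
Mcm5 (chr8:75109259-75109508, plus strand): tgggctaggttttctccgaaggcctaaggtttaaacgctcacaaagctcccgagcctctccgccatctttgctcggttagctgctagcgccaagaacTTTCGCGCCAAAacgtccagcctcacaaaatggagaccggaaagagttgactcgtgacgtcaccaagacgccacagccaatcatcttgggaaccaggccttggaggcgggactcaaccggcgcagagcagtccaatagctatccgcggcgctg
Orc1 (chr4:108579304-108579453, plus strand): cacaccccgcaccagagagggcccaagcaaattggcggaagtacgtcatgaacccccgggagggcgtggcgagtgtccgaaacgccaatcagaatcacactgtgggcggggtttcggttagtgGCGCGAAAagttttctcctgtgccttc
Mcm6 (chr1:128359706-128359855, minus strand): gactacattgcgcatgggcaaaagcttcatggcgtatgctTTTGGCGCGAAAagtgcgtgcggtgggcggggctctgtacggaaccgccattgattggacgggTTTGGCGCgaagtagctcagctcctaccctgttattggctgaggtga

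Around the G1 phase the list was divided. Of 19 cyclin, CDK and E2F genes measured on both arrays, 6 (31.6%, all genes 11.9%) stood 2-fold or more higher and 1 lower, with a median of 0.53. E2f2 read 1.04 against -1.77, Rb1, the retinoblastoma repressor of E2F, 2.92 against 0.85, and Ccne2, a cyclin of S phase entry, -0.12 against -1.51. Ccnd1, a cyclin of G1, read 5.58 against 4.47 while its relative Ccnd3 read 3.06 against 4.14. Among 25 CDK inhibitors and p53 targets 3 (12%) were at least 2-fold lower and 2 (8%) higher, shares under the 16.6% and 11.9% of all genes, with a median of -0.10, which is 0.30 with spike-in scaling. Cdkn1c, the imprinted inhibitor p57, read 1.06 against 5.01 and 1.41 against 6.52 at 5% O2. Its culture term was -4.53 ± 0.34 (SE; limma adjusted p = 0.00447). Cdkn1a (p21) read 4.11 against 3.76, and Cdkn2a, which encodes p16 and p19, 0.08 against 1.05 but 0.38 against 0.39 at 5% O2. Neither passed the culture term (limma adjusted p = 0.15 and 0.228). Trp53 itself read 1.22 against -0.25, with 2 probes that disagreed in direction and a difference under 2-fold by the median over probes, and Gadd45a 0.53 against 2.52.

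Genes known as MYC targets for cell growth were higher with little exception. The 28 ribosome biogenesis genes were all measured and all higher under each scaling, 26 at least 2-fold, with a median of 1.44 here and 1.80 at 5% O2. Each of the 28 passed the culture term, against 27.3% of all genes passing as higher. Dkc1, a pseudouridine synthase of ribosomal RNA, read 0.58 against -2.44. Nolc1 and Nop56, nucleolar proteins, read 3.22 against 1.19 and 5.70 against 3.71. Ncl and Npm1, the abundant nucleolar proteins nucleolin and nucleophosmin, read 6.80 against 5.64 and 7.12 against 5.96. The range over the list was narrow, from 0.64 to 3.02.

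Nucleotide and one-carbon synthesis genes differed in the same direction. Of 22 genes 21 were higher under each scaling, and 14 were at least 2-fold higher, with a median of 1.14 here and 1.64 at 5% O2. Ppat, which commits purine synthesis, read 1.54 against -1.11. Shmt1, a serine hydroxymethyltransferase, read -0.01 against -2.50, Umps 3.68 against 1.49 and Cad, of pyrimidine synthesis, 4.39 against 2.33. In the list of MYC partners and polyamine enzymes, Sms and Amd1, which make spermine and its aminopropyl donor, were higher by 2.64 and 1.81, and Srm by 1.05. Mycn read -4.18 against -2.02 and Mga -0.71 against 0.56, both 2-fold lower, while Max, the partner of MYC, was 2.82 against 2.36. Tert read -2.35 against -2.90.

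The E-box CACGTG, the preferred site of MYC and other factors of its class, reads the same on both strands. It occurs in the 250 bases before the start in 5 of 24 windows of nucleotide synthesis genes (20.8%), in 5 of 33 of replication genes (15.2%) and in 1978 of all 32851 windows (6.02%). None of 25 windows of ribosome biogenesis genes holds these letters, which says only that they are not in this stretch. The members Atic, Nme1 and Paics, of purine and nucleotide synthesis, are shown because they carry it and were higher by 1.67, 1.16 and 1.15. Sequences end at the base before the start, with the E-box in capitals.
Atic (chr1:71557006-71557155, plus strand): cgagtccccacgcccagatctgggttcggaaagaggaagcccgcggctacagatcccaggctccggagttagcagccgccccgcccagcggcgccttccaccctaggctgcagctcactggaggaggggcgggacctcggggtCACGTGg
Nme1 (chr11:93968273-93968422, minus strand): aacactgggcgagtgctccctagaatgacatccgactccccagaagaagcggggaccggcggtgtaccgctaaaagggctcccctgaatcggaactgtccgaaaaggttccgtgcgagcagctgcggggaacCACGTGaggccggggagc
Paics (chr5:76951052-76951301, plus strand): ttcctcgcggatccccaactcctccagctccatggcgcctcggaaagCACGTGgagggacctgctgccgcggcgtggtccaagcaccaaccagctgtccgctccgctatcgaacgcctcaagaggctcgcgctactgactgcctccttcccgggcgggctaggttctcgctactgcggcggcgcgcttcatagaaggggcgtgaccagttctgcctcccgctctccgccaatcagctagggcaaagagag

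Energy metabolism genes had smaller differences. Of 28 respiratory chain and TCA cycle genes 27 were higher (25 with quantile normalization, 28 with spike-in scaling), with a median of 0.54. Only 2 (7.14%, all genes 11.9%) were at least 2-fold higher, Cycs (cytochrome c) by 1.24 and Idh3a by 1.13. Of 23 glycolysis genes 4 were at least 2-fold higher and none lower, with a median of 0.47 here and 1.17 at 5% O2. These were Pfkp, Hk2, Slc16a1 and Slc2a3, with differences of 1.88, 1.62, 1.62 and 1.54, although the 3 probes of Pfkp disagreed in direction. These 4 are 17.4% of the list, against 11.9% of all genes. Low oxygen is known to induce genes of this list. Slc16a3, a lactate exporter, read 1.62 against 1.42 here and 6.26 against 3.64 at 5% O2.

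Antiviral genes were lower. Of 26 interferon response genes 24 were measured on both arrays, all 24 were lower (23 with spike-in scaling) and 21 at least 2-fold, with a median of -2.55 here and -2.87 at 5% O2. Mx1 was dim on every array. Ifit1, which binds foreign RNA, read -5.46 against -0.98 and Ifit3 -2.86 against 1.48. Mx2 read -3.96 against -0.35 and Oasl2 -3.70 against -0.10. Isg15, a ubiquitin-like modifier, read -2.31 against 0.64. The factors that carry the interferon signal to DNA were lower too: Stat2 read -1.96 against 0.70, Irf9 -0.84 against 1.59 and Irf7 -4.91 against -2.03. Culture terms were -5.13 ± 0.37 for Ifit1, -4.86 ± 0.31 for Ifit3 and -3.07 ± 0.26 for Stat2 (SE; limma adjusted p = 0.00433, 0.00389 and 0.00533), and 22 of 24 passed as lower. Rsad2 did not pass, being -1.79 here and 0.17 at 5% O2.

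The interferon-stimulated response element, searched on both strands as GAAA, any 2 bases and GAAA again, occurs in the 250 bases before the start in 8 of 21 windows of these genes (38.1%) and in 978 of all 32851 windows (2.98%). Those of Ifit1, Ifit3 and Isg15 are shown, since the genes had differences of -4.48, -4.33 and -2.95. Matching letters, on either strand, are in capitals.
Ifit1 (chr19:34640739-34640888, plus strand): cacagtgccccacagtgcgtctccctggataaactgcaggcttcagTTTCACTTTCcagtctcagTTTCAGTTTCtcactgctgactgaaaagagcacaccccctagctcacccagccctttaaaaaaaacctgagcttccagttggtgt
Ifit3 (chr19:34583279-34583528, plus strand): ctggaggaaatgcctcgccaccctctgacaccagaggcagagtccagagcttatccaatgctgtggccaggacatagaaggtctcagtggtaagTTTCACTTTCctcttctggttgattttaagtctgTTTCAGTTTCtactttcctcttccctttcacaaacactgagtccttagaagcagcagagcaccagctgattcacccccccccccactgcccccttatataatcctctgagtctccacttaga
Isg15 (chr4:156200819-156200968, minus strand): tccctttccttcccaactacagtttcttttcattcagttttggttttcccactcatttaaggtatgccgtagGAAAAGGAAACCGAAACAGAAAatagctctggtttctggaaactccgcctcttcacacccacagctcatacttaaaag

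Other immune and lysosomal lists had medians below 0. Of 10 complement genes measured on both arrays, 8 stood 2-fold or more lower and 2 at least 2-fold higher, with a median of -2.13. Cfb and C3, of the alternative pathway, read -5.68 against -1.76 and -0.27 against 2.21. The regulator Cd55 was higher by 1.19. Of 18 measured chemokines and cytokines 11 were at least 2-fold lower and 3 higher, with a median of -1.25. Cxcl12, a stromal chemokine, read 0.19 against 5.02 and -0.31 against 4.20 at 5% O2, with a culture term of -4.67 ± 0.18 (SE; limma adjusted p = 0.00288). Ccl11 differed by -3.97 and Cxcl5 by -3.42, while Ptgs2, the inducible prostaglandin synthase, read 2.05 against -0.46. Antigen presentation had a median of -0.64, with Psmb8 and Psmb9, subunits of the immunoproteasome, at -2.74 and -2.07 and H2-K1 and B2m at -0.59 and -0.64. Among 28 lysosome genes 7 (25%) were at least 2-fold lower, against 16.6% of all genes, and 1 higher, with a median of -0.53. With spike-in scaling 4 were 2-fold lower and the median was -0.13. Ctsk and Hexa differed by -2.11 and -1.62, and Gla by 1.99.

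Macrophage markers differed between the cultures beside these lists. Of 20 markers 17 were well above background on the untransduced array and 10 on the four-factor array, and their summed linear level was 18 against 1.21 in units of the 75th percentile (40 against 1.01 at 5% O2). Lyz2, lysozyme of macrophages, read -2.22 against 3.85, and Ctss -6.54 against -1.34. Lyz2 alone made most of the summed level on the untransduced array at each oxygen level, so the sums do not describe the markers evenly. Over the 9 markers measured on both arrays the median was -2.36, with 6 at least 2-fold lower and 1 higher. The defining markers Adgre1 (F4/80), C1qa, C1qc, Tyrobp, Mrc1, Aif1, Msr1 and Ptprc (CD45) were not well above background on the four-factor array and read from -4.75 to -1.44 on the untransduced array. Csf1r, the receptor of the macrophage growth factor, read -5.04 against -2.68, and Csf1, its ligand, 2.28 against 4.03. Laptm5 and Cd68 were higher, by 1.74 and 0.85, and Itgam had a bound of 1.36-fold higher. At 21% O2, 8 markers were seen on the untransduced array only. Markers dim on both four-factor arrays, Adgre1, Tyrobp, C1qc and Ptprc among them, entered the model through the untransduced arrays only. The culture term passed as lower for 14 of the 18 fitted and as higher for 1. The part of these markers' cells in the interferon, complement, chemokine, antigen presentation and lysosome differences was not tested.

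Imprinted and insulin-like growth factor genes formed another low group. Of 19 measured on both arrays, 14 stood 2-fold or more lower and none 2-fold higher, with a median of -2.31 here and -2.73 at 5% O2. Igfbp5 and Igfbp2, which bind insulin-like growth factors, read -1.02 against 4.92 and 0.54 against 5.65. Dlk1, a paternally expressed surface protein of immature mesenchyme, read 1.72 against 7.10 and its maternally expressed neighbour Meg3 3.95 against 6.71. H19 and Igf2, a maternally and a paternally expressed neighbour, read 2.27 against 6.04 and 4.96 against 6.94. Culture terms were -6.37 ± 0.28 for Igfbp5, -5.62 ± 0.20 for Dlk1, -3.79 ± 0.16 for H19 and -2.35 ± 0.25 for Igf2 (SE; limma adjusted p = 0.00288, 0.00288, 0.00288 and 0.00752). Both partners of each pair were lower. Grb10 and Igfbp7 differed by -0.58, and Igf1r by -0.07.

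Chromatin genes were mostly higher. Of 33 measured 12 were at least 2-fold higher and none 2-fold lower, with a median of 0.62. Chd7, a chromatin remodeller, read 1.28 against -2.47. The histone methyltransferase genes Suv39h2, Dot1l and Ezh2 were higher by 2.64, 2.28 and 1.41. Dnmt3b, a DNA methyltransferase, read -1.62 against -3.14, while Dnmt3a read 0.29 against 1.07. Tet1 was -3.74 against -3.24. The 38 Hox genes on the array, which hold positional identity, included 30 measured on both arrays with a median of -0.23 (0.17 with spike-in scaling), 5 of them (16.7%) at least 2-fold lower and none higher, a share near the 16.6% of all genes. Hoxa10 and Hoxb9 differed by -1.35 and -1.15, and Hoxa13 was at least 6.36-fold lower. Hoxa9 and Hoxa7 were higher by 0.49 and 0.50.

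Stress lists showed no common direction. Amino acid stress genes had a median of -0.22 (0.18 with spike-in scaling), but Trib3, Chac1 and Ddit3, targets of ATF4, read 0.68 against 3.87, 1.05 against 3.79 and 0.47 against 2.56. The culture term of Trib3 was -3.36 ± 0.18 (SE; limma adjusted p = 0.00348). Cholesterol synthesis was centred on 0, with 9 of 18 genes higher (14 with spike-in scaling). In the NRF2 and antioxidant list 6 of 22 (27.3%, all genes 11.9%) were at least 2-fold higher, among them Gsta4 by 1.86, G6pdx by 1.54 and Txn1 by 1.35. Another 4 (18.2%, all genes 16.6%) were at least 2-fold lower, Gpx3 and Gstm2 by differences of -2.76 and -2.63. Of 17 immediate early genes 3 (17.6%, all genes 11.9%) were at least 2-fold higher and 5 (29.4%, all genes 16.6%) lower. Their median was -0.45 here and 0.32 over 16 genes at 5% O2, where 5 were at least 2-fold higher and 1 lower. Fosl1, an AP-1 subunit, had the largest difference here, at 0.51 against -1.94. Egr1 was 1.78 against 2.96. Most of the 22 germ line genes (14) were dim on both arrays. Among 5 measured on both, Ddx4, the germ cell RNA helicase, read -5.57 against 0.07, and -6.04 against -0.05 at 5% O2.

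Markers of other cell types differed in both directions in some lists and mostly in 1 direction in others. Of 13 neural and glial markers measured on both arrays, 6 stood 2-fold or more higher and 4 as much lower, with a median of 0.98 that is -0.61 with no filter on dim probes and -0.58 with a stricter one. At 5% O2 their median was -0.08. The neuronal cytoskeleton genes Nefl, Tubb3 and Stmn2 read 1.91 against -3.44, 2.45 against 0.21 and 2.45 against -0.09. The glial Sox10 and S100b read -4.14 against -1.31 and -1.73 against 0.32. Neuronal genes went this way too: Map2 read -0.37 against 1.66, and Dcx, dim in four-factor cells, was at least 4.24-fold lower. Ncam1 differed by -1.87, with probes that disagreed in direction. Among endothelial markers Pecam1, Cdh5 and Tie1 were dim on both arrays. Of 6 measured on both, 3 (50%, all genes 16.6%) were at least 2-fold lower and 1 (16.7%, all genes 11.9%) higher, with a median of -0.78. Erg read -3.39 against 0.80, and Flt1 and Kdr differed by -2.45 and -1.30. Tek, the 1 higher, read -0.05 against -2.66. Of the adipocyte markers Lpl, a lipase that stromal cells also express, read 0.45 against 5.25, and Adipoq was dim. Sox9 and Comp of cartilage differed by -2.96 and -5.11. Yet of 9 cartilage and bone markers measured on both arrays 5 were higher, none by 2-fold, and 3 were at least 2-fold lower, with a median of 0.10. No erythroid marker was measured on both arrays, but Hba-a1, an alpha globin, read -0.72 against a dim -5.26 and was at least 18.6-fold higher, with signal that its near-identical copy could share, and Hbb-bh1, an embryonic globin, at least 3.7-fold. The probes of Hbb-bh1 differed in detection at 5% O2. Of the 8 erythroid markers 3 were seen on the four-factor array only, 2 of them with a bound. The other 5, Alas2, Epb42, Slc4a1 and Gata1 among them, were dim on both. Skeletal muscle markers had a median of 0.08, and those of extraembryonic lineages -1.72 over 5 genes, 4 of them at least 2-fold lower.

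The genes with the largest differences over the whole array lay mostly outside these lists. Akr1c18, a hydroxysteroid dehydrogenase (chr13:4134506-4135881), read 5.12 against -4.68, which is 891-fold higher, and 4.55 against a dim -5.97 at 5% O2. Nat8l, which makes N-acetylaspartate (chr5:34319838-34319897), read 4.80 against -3.12. Crym, a thyroid hormone binding crystallin (chr7:119977605-119977664), read 5.12 against -2.57. Ano1, a calcium-activated chloride channel, read 3.86 against -2.87 and Sostdc1, a secreted BMP and WNT antagonist, was higher by 6.53. Itgb4, an integrin chain of epithelial hemidesmosomes, read 4.49 against -0.75, Aqp5, a water channel of glandular epithelium, 3.52 against -1.41, and Tdh, a threonine dehydrogenase known from mouse embryonic stem cells, 1.77 against -3.11. Culture terms were 10.16 ± 0.25 for Akr1c18, 7.60 ± 0.23 for Nat8l, 7.14 ± 0.33 for Crym and 5.16 ± 0.21 for Tdh (SE; limma adjusted p = 0.00288, 0.00288, 0.00303 and 0.00288).

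Some genes of high signal in four-factor cells were not seen at all in untransduced cells. Anxa10, an annexin (chr8:64949849-64949908), read 3.89 against a dim -7.18, at least 453-fold higher, and 2.16 against a dim -7.41 at 5% O2. Ceacam2, a cell adhesion molecule, was at least 246-fold higher, Aoah, a lipid A hydrolase, at least 170-fold, Scg5, a secretory granule protein, at least 170-fold and Slurp1 at least 65.2-fold. Aoah was measured in both cultures at 5% O2, at 1.95 against -4.72.

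Among the genes furthest lower, Agtr2, the angiotensin II type 2 receptor (chrX:20645397-20645456), read -2.83 against 4.36, which is 146-fold lower, and Thbs4, a matrix thrombospondin, -6.36 against 0.56. Angptl1, an angiopoietin-like protein, read -6.04 against 0.83, and Kcnj8, a potassium channel of mural cells, -4.10 against 2.51. Iigp1, an interferon-induced GTPase, read -5.43 against 1.21, and Epyc, a small proteoglycan, -5.33 against 0.95. Culture terms were -7.62 ± 0.27 for Agtr2, -6.68 ± 0.20 for Thbs4 and -7.35 ± 0.39 for Iigp1 (SE; limma adjusted p = 0.00288, 0.00288 and 0.0034). Cxcl15 and Galnt9 were dim in four-factor cells and at least 80.8-fold and 66.4-fold lower. The major urinary protein genes Mup1 and Mup4 also stood here, at least 106-fold and 83.6-fold lower, but their family members are nearly identical, and which member the signal came from is uncertain.

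**Figure D4:**
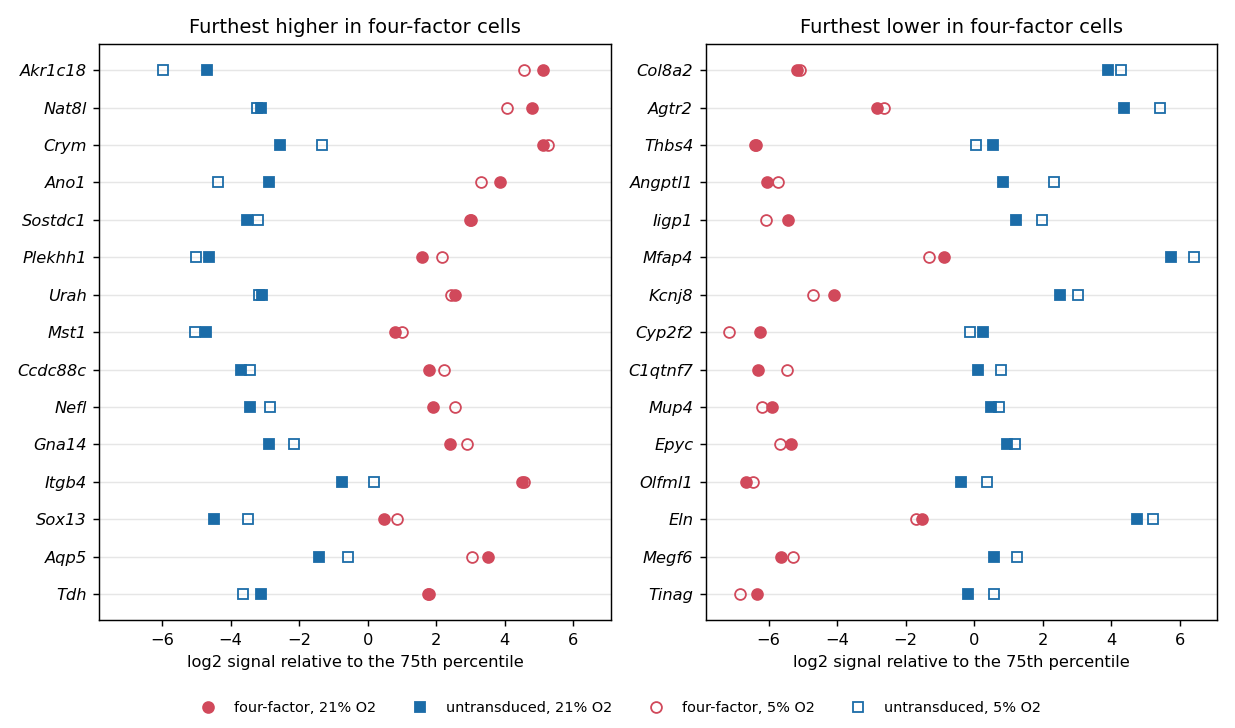
Level (log2 signal relative to the 75th percentile) on all 4 arrays of the 15 genes furthest higher (left) and furthest lower (right) at 21% O2 whose probes agree, with filled symbols for 21% O2 and open symbols for 5% O2. In every gene shown both four-factor arrays lie on one side of both untransduced arrays; Akr1c18 and Mst1 in untransduced cells and Cyp2f2 in four-factor cells were not well above background at 5% O2.

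The contrast was seen again at 5% O2, in cultures that share no array with it. Over 14926 genes measured on all 4 arrays, 1761 stood 2-fold or more higher at 21% O2, and 1591 of these did so at 5% O2 as well. That is 90.3% of the first list and 62.3% of the 2554 at 5% O2. Of 2395 genes at least 2-fold lower at 21% O2, 2117 were so at 5% O2, which is 88.4% of the first and 73.6% of the 2875 of the second. The sign was kept by 1747 of 1761 and 2381 of 2395, and 1 gene was 2-fold lower in the first contrast and 2-fold higher in the second. Both contrasts set slide 2 against slide 1, so slide and culture cannot be told apart in either. More genes passed 2-fold at 5% O2 than at 21% O2 in each direction. The medians of mitosis, replication, ribosome biogenesis, interferon and matrix glycoprotein genes were further from 0 at 5% O2, and those of chemokine, contractile, TGF-beta and YAP, and amino acid stress genes nearer to 0. Some medians changed sign, among them those of immediate early genes, from -0.45 to 0.32, and of neural and glial markers, from 0.98 to -0.08. Whether the contrasts differ was not tested, with 1 array per culture at each oxygen level.

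**Figure D5:**
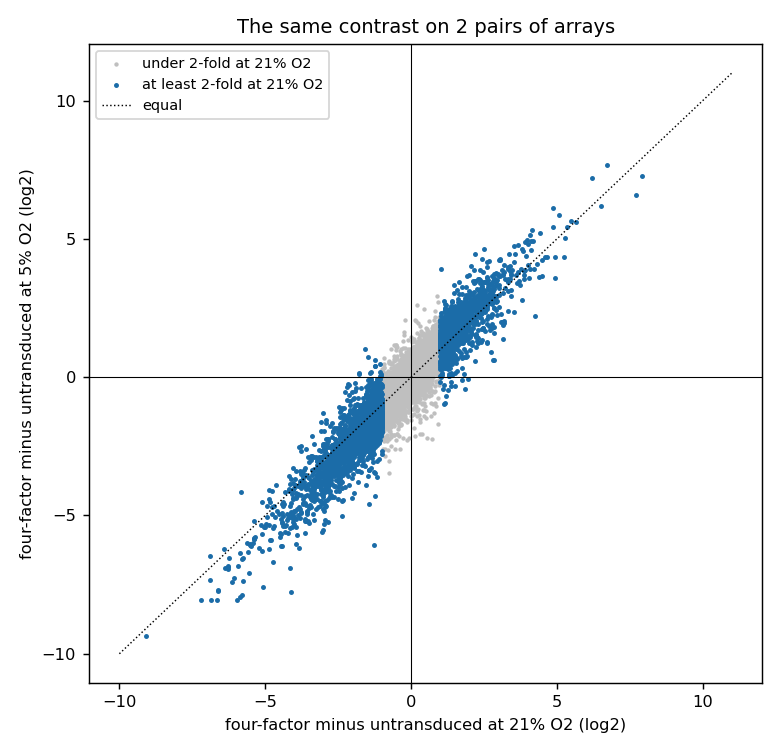
Difference between four-factor and untransduced cells (log2) at 5% O2 (vertical axis) against that at 21% O2 (horizontal axis) for the 14926 genes measured on all 4 arrays, with genes at least 2-fold apart at 21% O2 in blue and equality as a dotted line. Most blue points lie in the same quadrant in both contrasts, 1747 of 1761 on the higher and 2381 of 2395 on the lower side.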

How the data were processed

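Total RNA of 4 cultures was extracted with Trizol, labelled with Cy3 (Quick Amp protocol 5.7) and hybridised to Agilent mouse arrays, per the labels' protocols. The deposited scanner files hold the processed signal, a background-subtracted linear intensity written by Feature Extraction 9.5.3.1 with protocol GE1-v5_95_Feb07, per the file headers, which name build mm8 (NCBI 36). The deposited value table holds log2 intensities that matched the scanner signal scaled to the 75th percentile within 0.001 for at least 99.4% of probes on each array.

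Here the 75th percentile over an array's non-control probes was subtracted from log2 signal, outlier spots (65 to 115 an array) were dropped, spots of a probe were averaged, and the gene took its brightest probe by mean over the 2 arrays. Probes were named by accession (24490), symbol (6234) or synonym (2391) in a GRCm38.p6 gene table, and 8059 kept the file's name. Probes of a gene disagreed in direction for 1776 of 6408 genes with several, and for 147 of the 1562 of these at least 2-fold apart.

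No test was possible on 1 array a group. The limma model (limma 3.58.1, R 4.3.3) took genes well above background on at least 2 of 4 arrays, used dim arrays at their measured values, and adjusted p-values by Benjamini-Hochberg over all 18272 genes. At an unadjusted p under 0.05 it gave 5877 higher and 4934 lower. Tested on simulated data of 18272 genes with a noise SD of 0.208, it found 90% of the genes set 1 log2 unit apart and 100% of those 2 or more apart, and called 9 unchanged genes. The simulated noise was equal for every gene and independent between arrays, so these rates need not hold for the measured arrays. Tables were handled in Python 3.11.15 with pandas 2.3.3 and numpy 2.4.6, and plots with matplotlib 3.10.9.

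The gene lists (34, with 8 marker lists, 931 genes, 921 on the array) and members were chosen with earlier results of these data known. The genes named are the transduced genes, the 15 per direction with the largest difference among genes with a current symbol whose probes agree, the 6 per direction with the largest bound, up to 5 per list furthest from 0 and those at least 2-fold against the list's median, 13 fixed genes (Cdh1, Epcam, Nanog, Thy1, Snai2, Zeb1, Col1a1, Cdkn1a, Cdkn2a, Igf2, Csf1r, Ptprc and Pecam1) and the 10 of highest signal per array. Other list members were chosen after their values were seen. Alternatives were normexp (offset 50), scaling on 8 spike-in probes, the percentile over probes well above background, quantile normalization, the deposited table, no filter or a stricter filter on dim probes (4 times the lowest signal well above background), the median over probes and a common detection floor.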

Additional observations from a re-analysis of the deposited data

How the results depend on the processing

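Each comparison has 1 array per culture, so no replicate could be left out. The labels carry no replicate numbers to pair on, and the culture term compares the cultures within each oxygen level. Scaling on spike-in controls moved the counts to 3474 genes at least 2-fold higher and 1665 lower, and to 8894 higher and 2645 lower by the limma culture term. With no filter on dim probes 3038 genes were higher and 9778 lower, and 10784 were lower by the culture term, since dim values then count as measured; this setting gives no bounds. Normexp background correction left 148 genes higher by their bound, and the stricter filter 211 lower by their bound; the cause was not tested. The other counts stayed within 1.5 times the main one.

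These medians changed sign, and the cause was not tested. Normexp gave 0.06 for cholesterol synthesis and -0.04 for skeletal muscle. Spike-in scaling gave 0.37 for pluripotency, 0.30 for CDK inhibitors and p53 targets, 0.18 for amino acid stress, 0.40 for cholesterol synthesis, 0.17 for Hox genes and 0.24 for germ line genes. With no filter the medians were 0.09 for endothelium, -0.17 for skeletal muscle, -0.23 for cartilage and bone and -0.61 for neural and glial markers (main value 0.98). The stricter filter gave -0.30 for skeletal muscle, -0.23 for cartilage and bone and -0.58 for neural and glial markers. The median over probes gave -0.14 for the transduced genes (main value 0.73), 0.16 for cholesterol synthesis and 0.19 for germ line genes. A common detection floor of -4.93, chosen after seeing the data, gave 0.02 for pluripotency and 0.01 for germ line genes. Of the named genes at least 2-fold apart none changed direction in these settings, but some fell under 2-fold. These were 24 of 251 with normexp, Sox2 and Fbxo15 among them, 17 with spike-in scaling, Klf4 among them, and 1 with the percentile over probes well above background. The stricter filter lost 7 of 228, Cdh1, Fbxo15 and Mmp10 among them, the median over probes 11 of 239, Myc and Trp53 among them, and the common detection floor 10 of 251, Sox2, Tcf21, Hoxa13 and Ptprc among them. Named genes under 2-fold with a small negative difference turn positive with spike-in scaling.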
